A study of Mus musculus with 8 samples.

Results

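The erythroid and hemoglobin genes were followed here as a group that marks cells of the red cell lineage, written as 9 symbols: the globins Hba-a1 and Hbb-bs, the heme synthesis enzyme Alas2, the membrane genes Slc4a1, Epb42 and Rhd, the globin chaperone Ahsp, the nuclear protein Hemgn and the carbonic anhydrase Car1. They were chosen by name, and each was to be read on the row whose RefSeq transcript carries that symbol. Of these 9 genes, 7 had such a row among 24625 rows and 19836 distinct symbols, and no gene of the list had more than 1 row. Hba-a1 and Ahsp had no matched row, and their expression is not analysed here.

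The samples were lung neutrophils of wild type (WT) mice, 6 to 12 weeks old per the labels. The study's methods give a narrower age range, and colonies founded from female C57BL/6J mice with sex-matched groups. A volume of 2.3 µl for each g of body weight had been instilled intratracheally on the left side 24 h earlier. It held PBS alone in the 4 control samples and the pneumonia bacterium S. pneumoniae (SP) in PBS in the 4 others. Lung vessels were flushed with PBS, the lung digest went through a red blood cell lysis step, and neutrophils were bound to MACS beads through Ly6G, a protein on their surface. Purity was examined by the authors on stained cells of pneumonia samples. They describe few other cells there, mostly resembling alveolar macrophages and rarely eosinophils. No such count is given for PBS samples, though they state that Ly6G mRNA was high in all samples. Each sample was read on 1 Affymetrix Mouse Gene 1.1 ST array. The labels number the replicates but do not say that each was 1 mouse, so p-values measure the spread between these samples, and the number of arrays limits their precision.

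Red blood cells form in bone marrow and, in mice, also in spleen, from progenitors that switch on globin, heme and membrane genes under the transcription factors Gata1, Klf1 and Tal1. The nucleus is lost before the cell enters the blood, yet the youngest circulating cells, the reticulocytes, still carry globin mRNA. Adult mouse hemoglobin joins alpha chains, encoded by the near-identical genes Hba-a1 and Hba-a2, with beta chains, which C57BL/6J mice make from Hbb-bs and Hbb-bt. Neutrophils are not known as makers of hemoglobin, so these genes are commonly read as a sign of red cell RNA in a leukocyte preparation.

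Transcripts of both adult globin chains were lower in neutrophil samples of SP mice, Hbb-bs by 11.0-fold and Hba-a2 by 11.6-fold, with no overlap between the groups. Alas2 was clearly above background on PBS arrays 3 and 4 only and did not pass the test, and the 5 other members with a row stayed at background in both groups. Background was taken from Ddx3y, Kdm5d and Uty, Y-linked genes whose rows read between 4.33 and 4.90 on the log2 scale, below the median of every array. No source used here states the sex of the mice studied, so this level is a measure of background only if they were female. A gene is called here where its difference between SP and PBS had an adjusted p of at most 0.05 in limma. This linear model draws the spread of each row toward a value estimated from all rows.

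The sequence before the genes is shown first, because they are known targets of shared factors, Gata1 and Klf1, while their values on the arrays differed widely. RefSeq promoter windows of 300 bases (250 before and 50 after the annotated start, mouse build GRCm38.p6) were at hand for Hba-a1, Hbb-bs, Alas2, Epb42, Hemgn and Rhd. The deposited values name no build, so these positions describe the RefSeq genes and not the rows. The 250 bases before the start follow for the globins that changed and for Alas2, 5′ to 3′ on the strand of the gene. Capitals mark AGATAA or TGATAA, which are GATA factor motifs, and CACCC, a motif of Klf1 and related factors, read on either strand, so that TTATCT and GGGTG are the same motifs on the other strand. Those of Hbb-bs lie at chr7:103827929-103828178 on the minus strand, those of Hba-a2 at chr11:32296242-32296491 on the plus strand and those of Alas2 at chrX:150547167-150547416 on the plus strand.
Hbb-bs: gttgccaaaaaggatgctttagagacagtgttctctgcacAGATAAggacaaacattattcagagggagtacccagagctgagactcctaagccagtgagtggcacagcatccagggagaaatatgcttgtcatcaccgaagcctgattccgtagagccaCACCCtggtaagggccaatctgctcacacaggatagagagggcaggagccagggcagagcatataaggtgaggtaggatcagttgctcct
Hba-a2: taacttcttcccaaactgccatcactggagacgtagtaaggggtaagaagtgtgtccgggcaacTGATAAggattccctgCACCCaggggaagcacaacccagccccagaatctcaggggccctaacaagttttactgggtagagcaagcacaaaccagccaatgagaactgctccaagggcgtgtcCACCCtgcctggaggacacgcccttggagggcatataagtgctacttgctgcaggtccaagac
Alas2: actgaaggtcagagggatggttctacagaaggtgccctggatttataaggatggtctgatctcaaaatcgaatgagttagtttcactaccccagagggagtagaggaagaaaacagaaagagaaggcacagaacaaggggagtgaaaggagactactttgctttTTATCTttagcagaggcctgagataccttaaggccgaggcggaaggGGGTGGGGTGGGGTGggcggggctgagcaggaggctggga

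In Hbb-bs, AGATAA began 210 bases and CACCC 90 bases before the start. In Hba-a2, TGATAA began 186 bases before it, with CACCC at 170 and 63 bases. In Alas2, AGATAA lay on the other strand 86 bases before the start, followed by 3 copies of CACCC on that strand at 40, 35 and 30 bases. The stretches around the GATA motif are shown for the 3 members with a window whose rows stayed at background on the arrays, so that they can be set beside the globins.
Rhd: cggcagcctgAGATAAgacctttggc
Hemgn: ctgtgcagtgTGATAAagaaagtgga
Epb42: ctctatttccTTATCTcgttcaaaca
The Rhd motif began 43 bases before the start, at chr4:134864483-134864508 with its flanks on the plus strand. The Hemgn motif shown began 13 bases before it, at chr4:46404181-46404206 on the minus strand, and the Epb42 motif lay on the other strand 226 bases before it, at chr2:121037088-121037113 on the minus strand. Hemgn held a further GATA motif, AGATAA, 29 bases after the start. All 6 members with a window held AGATAA or TGATAA, against 18.6% of 32851 RefSeq windows of the same length, among which the AGATAA form was found in 11.2% and the TGATAA form in 9.05%. CACCC was in 4 of the 6, against 57.5% of all windows, and 8.96% of all windows held both kinds. The 2 GATA forms cannot start at the same base, and the form that begins with T can share 2 bases with the Klf1 motif when they lie on opposite strands. A match describes letters in a window and is not a measured binding site.

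Hbb-bs, the beta chain gene, was the member whose level changed most between the groups. On the log2 scale it read 10.03, 9.81, 12.38 and 11.70 on PBS arrays 1 to 4. It read 7.95, 6.61, 7.62 and 7.89 on SP arrays 1 to 4. Every PBS array was above every SP array, and the lowest PBS value exceeded the highest SP value by 1.86. The means were 10.98 ± 1.26 (SD, n = 4) in PBS and 7.52 ± 0.62 (SD, n = 4) in SP. The difference of -3.47 (SE 0.60, 95% interval -4.84 to -2.09) is an 11.0-fold lower level in SP, with an adjusted p of 0.00214 by limma with Benjamini-Hochberg adjustment over all rows. A two-sided exact permutation test gave p = 0.0286, the smallest value that 70 arrangements of 4 against 4 arrays allow. The difference stayed called in 16 of 16 alternatives fitted against a difference of 0, between -3.86 and -3.00. Its adjusted p ran from 0.000546 (limma with array weights) to 0.0124 (the methods' t-test). Against a difference of 1 log2 unit, limma's treat gave an adjusted p of 0.0281. Values are relative within an array, so the number of cells that carry the transcript cannot be read from them. In such bulk samples, a smaller share of these cells and less transcript per cell cannot be told apart.

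The same row also spread widely within the PBS group. PBS array 3 lay 2.57 above PBS array 2 on the log2 scale, a 5.95-fold gap, and PBS arrays 3 and 4 were both above PBS arrays 1 and 2. By its SD in the PBS group, Hbb-bs ranked 16 among all rows. In the SP group the range was 1.33, with SP array 2 the lowest. Without PBS array 3 the difference was -3.00, and without SP array 2 it was -3.16, both called.

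**Figure D1:**
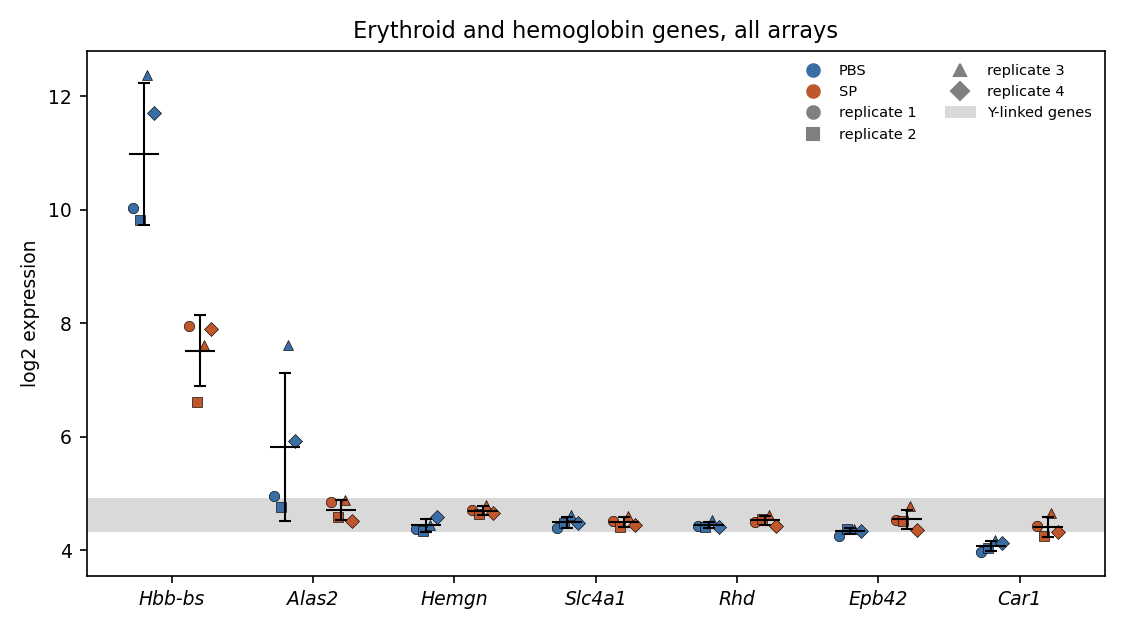
Log2 expression of the 7 erythroid genes with a row on the 4 PBS arrays (blue) and 4 SP arrays (red), with symbols for replicate numbers, the mean as a long bar and 1 SD as whiskers; the grey band spans the Y-linked rows, 4.33 to 4.90. Hbb-bs lies far above the band in both groups and lower in SP, Alas2 rises above it on PBS arrays 3 and 4, and the 5 other genes lie in or under it.

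The alpha chain could be read only on Hba-a2, since Hba-a1 had no matched row. Rows without a symbol were not searched for it. Both genes encode the same chain and are near-identical in sequence, so the row may carry signal of either. It read 10.14, 9.93, 12.26 and 11.77 in PBS and 7.76, 6.86, 7.61 and 7.70 in SP. The groups did not overlap, and the arrays ran in the same order within each group as for Hbb-bs, with PBS array 3 highest and SP array 2 lowest. The means of 11.03 ± 1.17 and 7.48 ± 0.42 (SD, n = 4 each) differed by -3.54 (SE 0.53), 11.6-fold lower in SP, with an adjusted p of 0.00103 by limma. Its alternatives lay between -3.91 and -3.13, all called. Hba-a2 was also the gene whose values were most like those of Hbb-bs, with a Pearson r of 0.9971 over the 8 arrays, and of 0.9923 on deviations from the group means, where the difference between groups plays no part.

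Other globins gave no such signal. The embryonic and minor genes Hba-x, Hbb-y, Hbb-bh1, Hbb-bh2 and Hbq1a were at or below the highest Y-linked value on all 8 arrays, and Hbq1b read 4.60 in PBS and 4.90 in SP (difference 0.29, SE 0.11, limma adjusted p 0.0549). Hbb-bt, Hbb-b1 and Hbb-b2 had no matched row. Of the 7 other globin genes with a row, 1 was called, Hba-a2, beside 44.1% of all rows. The median difference of these globins was 0.10. With arrays centred on their median all 7 were called, and 2 were called with the robust prior, the replicate block or array weights, or without PBS array 3 or SP array 4.

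Alas2 encodes the first enzyme of heme synthesis in red cell precursors. It read 4.95, 4.76, 7.61 and 5.93 in PBS and 4.84, 4.59, 4.88 and 4.52 in SP. PBS arrays 3 and 4, the arrays with the most globin signal, were the only ones clearly above the Y-linked band, and 5 of the 8 arrays were at or below its upper edge. The groups overlapped. The means of 5.81 ± 1.30 and 4.71 ± 0.18 (SD, n = 4 each) differed by -1.11 (SE 0.56, 95% interval -2.39 to 0.18), which did not pass the test (limma adjusted p 0.134, exact permutation p = 0.114). Without PBS array 3 the difference was -0.50 and no alternative called it (limma adjusted p 0.0652 to 0.216 against a difference of 0). The values of Alas2 and Hbb-bs had an r of 0.82 over the 8 arrays and of 0.86 on deviations from the group means, coefficients in which PBS array 3 has a large share.

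**Figure D2:**
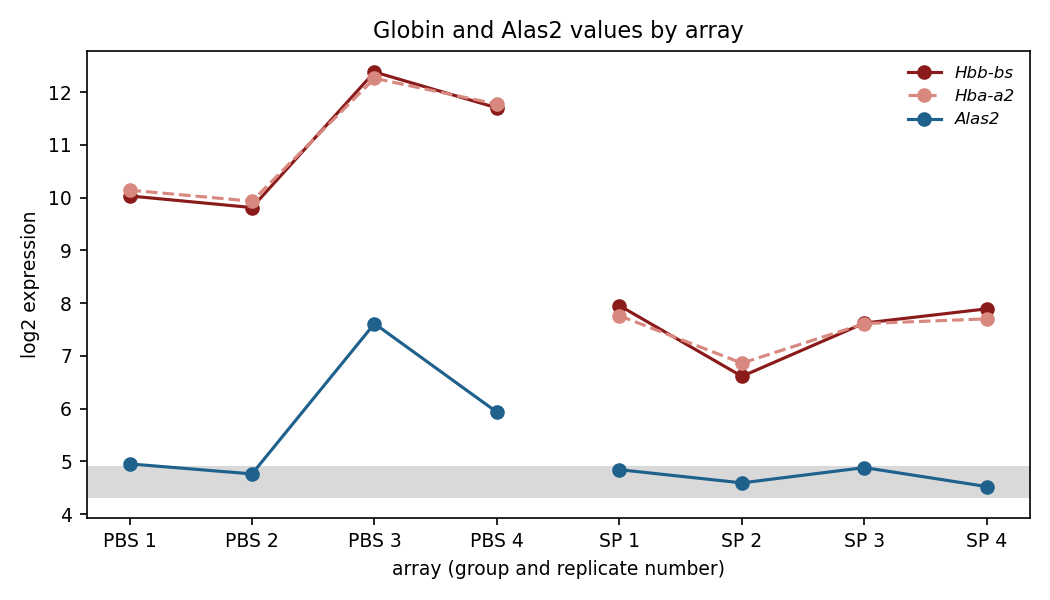
Log2 expression of Hbb-bs, Hba-a2 and Alas2 on each array (group and replicate number on the horizontal axis); lines only join values of 1 gene within a group, and the grey band spans the Y-linked rows. Both globins are highest on PBS array 3 and next highest on PBS array 4, as is Alas2.

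The membrane genes of the group stayed at background. Slc4a1, which encodes the band 3 anion exchanger of the red cell membrane, read 4.39, 4.48, 4.61 and 4.47 in PBS and 4.52, 4.41, 4.60 and 4.45 in SP. Epb42, for protein 4.2 that ties band 3 to the membrane skeleton, read 4.25, 4.37, 4.37 and 4.34 in PBS and 4.53, 4.51, 4.77 and 4.36 in SP. Rhd, for the Rh protein, read 4.42, 4.41, 4.53 and 4.41 in PBS and 4.50, 4.55, 4.62 and 4.42 in SP. All these values lie at or below 4.90, the highest Y-linked value. Differences were 0.01 for Slc4a1 (95% interval -0.17 to 0.19), 0.21 for Epb42 and 0.08 for Rhd, with limma's adjusted p at 0.935, 0.107 and 0.349. At such levels a fall in these transcripts could not be seen on these arrays. Centring each array on its median, which raised every difference, was the only alternative that called them. All were then higher in SP, by 0.29 for Slc4a1, 0.49 for Epb42 and 0.36 for Rhd.

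Hemgn and Car1 also stayed at background, yet both were called as slightly higher in SP. Hemgn, a nuclear protein of blood progenitors and erythroid cells, read 4.37, 4.34, 4.45 and 4.58 in PBS and 4.70, 4.64, 4.80 and 4.65 in SP. Car1, an abundant red cell enzyme that hydrates carbon dioxide, read 3.97, 4.03, 4.18 and 4.12 in PBS and 4.42, 4.25, 4.65 and 4.32 in SP. In neither gene did the groups overlap. The differences were 0.26 (SE 0.08, limma adjusted p 0.0302) and 0.34 (SE 0.10, limma adjusted p 0.0287). Rows at this level shifted upward in SP as a whole. Among 6195 rows with a mean between 4.33 and 4.90, the median difference was 0.17, 88.9% were higher in SP and 1307 (21.1%) were called, 1198 of them as higher, while 4 of the called rows differed by 2-fold or more. Of the Y-linked genes themselves, Kdm5d was called, with a difference of 0.19. The calls of Hemgn and Car1 held in 9 and 10 of 15 alternatives against a difference of 0, and the second quantile normalization gave 0.11 for Hemgn and 0.21 for Car1, neither called. Hemgn also lost its call with the replicate block (limma adjusted p 0.0616) and without PBS array 1 (0.24), PBS array 2 (0.23), PBS array 3 (0.27) or SP array 1 (0.26). Car1 lost it without PBS array 1 (0.30), PBS array 2 (0.32), PBS array 4 (0.35) or SP array 1 (0.33).

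Over the group, 3 of the 7 genes with a row were called, Hbb-bs lower and Hemgn and Car1 higher in SP. Among all rows, 44.1% were called, 21.5% as higher and 22.6% as lower in SP, a share close to that of the 7 genes. At 2-fold or more, 1 of the 7 was called, against 17.6% of all rows (11.3% lower and 6.37% higher). The groups did not overlap in 3 of the 7, against 49.0% of all rows. The median difference of the 7 genes was 0.08, beside 0.10 for all rows. Hbb-bs itself ranked 34 among all rows ordered from the largest fall.

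The genes that follow Hbb-bs most closely after Hba-a2 were in none of the erythroid lists. By Pearson r on the log2 values over 8 arrays they were Actn1, a cytoskeletal actinin (r 0.9902), Cdc25b, a cell cycle phosphatase (0.9873), Scp2, a lipid transfer protein (0.9849), and Hacd4, a fatty acid enzyme (0.9822). These coefficients contain the difference between the groups. On deviations from the group means, Tbc1d2b (0.9662), 1500011B03Rik (0.9619), Actn1 (0.9504) and Olfr993 (0.9466) followed Hba-a2. Their differences were small beside that of Hbb-bs, from -1.51 for Cdc25b to 0.05 for Olfr993. Each r rests on 8 arrays and was picked from all rows, so it describes likeness only.

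The wider machinery of red cell formation was described with 8 lists that hold 92 distinct genes with a row. Of these, 22 were called higher and 27 lower in SP (53.3% in all, against the 44.1% of all rows), with 10 in each direction at 2-fold or more. Of the 92, 18 genes were at background on all 8 arrays, among them defining red cell genes. Of these 18, 2 were called higher, Ank1 (0.33, limma adjusted p 0.00618) and Ermap (0.29, limma adjusted p 0.0312), and none lower. Among all rows with a mean between 4.33 and 4.90, 21.1% were called. Many genes of these lists that were well above background are known to be used by other cells too. Which cells carried their signal here was not tested.

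Of the transcription factors that drive the erythroid program, Gata1 and Klf1 were at background. Gata1 read 4.29 to 4.49 in PBS and 4.37 to 4.48 in SP, and Klf1 read 4.24 to 4.39 and 4.20 to 4.39. Their differences were 0.02 and 0.01. Tal1 read 5.38 to 5.65 in PBS and 5.56 to 5.66 in SP, above the Y-linked band but below the median of every array. Its difference was 0.10 (limma adjusted p 0.313). Of 11 factors with a row, 2 were called higher and 5 lower, beside 21.5% and 22.6% of all rows. The median difference of the factors was -0.57. Myb, a factor of blood progenitors, fell by 1.43 (SE 0.19, limma adjusted p 0.000566), with 8.18 to 8.95 in PBS and 6.84 to 7.50 in SP. Ldb1, which links Gata1 and Tal1 complexes, fell by 1.28 (SE 0.17, limma adjusted p 0.000586), with 10.87 to 11.38 in PBS and 9.37 to 10.05 in SP. Gfi1b, a repressor of erythroid and megakaryocyte cells, rose by 1.09 from a PBS mean of 5.61 to 6.71 (limma adjusted p 0.000282).

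All 10 further heme synthesis genes with a row were above background on at least 1 array. Alas1, the form of the first enzyme used outside red cells, was the brightest of the list, with 12.06, 12.09, 11.75 and 11.80 in PBS and 12.13, 12.08, 12.26 and 12.04 in SP (difference 0.20, limma adjusted p 0.134). Of the 10 genes with a row, 5 were called lower and none higher, beside 22.6% and 21.5% of all rows. The median difference of the list was -0.44. The 5 calls were 3 with the methods' t-test, 2 with a second quantile normalization, 2 without PBS array 1, and 3 without PBS array 2, SP array 1, SP array 2 or SP array 3. Ppox, the enzyme that makes protoporphyrin, fell by 1.33 (SE 0.13, limma adjusted p 0.000126), with 9.90 to 10.34 in PBS and 8.56 to 8.93 in SP. Urod, earlier in the pathway, fell by 0.78 (limma adjusted p 0.00156). Cpox, the step before Ppox, fell by 0.88 (limma adjusted p 0.0265) but was called in 10 of 16 alternatives. It was not called with the methods' t-test (adjusted p 0.0588), with a second quantile normalization (-0.49, limma adjusted p 0.140), or without PBS array 1 (-0.81), PBS array 2 (-0.79), SP array 2 (-0.71) or SP array 3 (-0.73). Unlike Hbb-bs, Cpox was lower on PBS arrays 3 and 4 (7.01 and 6.92) than on PBS arrays 1 and 2 (7.38 and 7.44). Alad and Fech had no matched row.

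Genes of the red cell membrane and skeleton went in both directions, 5 called higher and 6 lower of 18. Among all rows the shares were 21.5% higher and 22.6% lower, and the median difference of the list was 0.11. The 11 calls were 7 without PBS array 1, PBS array 2 or SP array 1. Sptb and Ank1, for spectrin beta and ankyrin of the red cell skeleton, and Rhag, Kel and Ermap, of the membrane, were at background on all arrays, though Ank1 and Ermap are 2 of the 5 called higher. The largest changes were falls of genes that endothelium or epithelium also expresses. Aqp1, a water channel, read 11.15 to 11.80 in PBS and 8.09 to 10.09 in SP (difference -2.61, SE 0.38, limma adjusted p 0.000917). Bcam, the Lutheran adhesion protein, read 10.83 to 11.41 in PBS and 7.77 to 9.50 in SP (difference -2.28, limma adjusted p 0.000966). In neither gene were PBS arrays 3 and 4 above both of the other PBS arrays. Slc2a1, the glucose transporter of red cells and of many other cells, differed by 0.05 (limma adjusted p 0.834), and its values were highest on PBS arrays 3 and 4 (12.63 and 12.61) and SP array 3 (12.61).

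Among red cell enzymes, 1 was called higher and 5 lower of 10, beside 21.5% and 22.6% of all rows. The median difference of the enzymes was -0.43. Cat, the catalase that removes hydrogen peroxide, fell by 1.98 (SE 0.16, limma adjusted p 4.97e-05), with 11.60 to 12.12 in PBS and 9.78 to 10.34 in SP. Nt5c3, a pyrimidine nucleotidase, rose by 1.93 (SE 0.27, limma adjusted p 0.000658), from a mean of 9.19 to 11.12. Aldoa, a glycolytic enzyme and the brightest of the list, differed by -0.28 (limma adjusted p 0.0535). Bpgm, which makes the phosphate that tunes oxygen release, fell by 0.98 from 6.98 to 5.99 (limma adjusted p 0.0130).

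Of 16 genes of late erythroid maturation with a row, 5 were called higher and 2 lower, beside 21.5% and 22.6% of all rows. The median difference of the list was 0.06, and Trim10, Tspo2 and Cldn13 were at background. Ube2l6, a conjugating enzyme for the ubiquitin-like protein Isg15, rose 8.82-fold, with 8.84, 8.21, 9.01 and 8.79 in PBS and 11.94, 11.89, 11.81 and 11.77 in SP (difference 3.14, SE 0.16, limma adjusted p 6.74e-06). It is also a known interferon-induced gene and is not specific to red cells. Bcl2l1, which encodes the survival protein Bcl-xL, rose by 1.27 (limma adjusted p 0.000330). Bnip3l, which clears mitochondria from reticulocytes and was the brightest gene of the list, differed by -0.02 (limma adjusted p 0.882).

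Erythropoietin signalling and iron uptake held 5 called higher and 2 lower of 11, beside 21.5% and 22.6% of all rows. The median difference of the list was 0.16, and the 7 calls were 4 with the replicate block and without PBS array 1 or SP array 1. Epor, the erythropoietin receptor, fell by 0.33 from a PBS mean of 5.33 (limma adjusted p 0.0377), and Tfrc, the transferrin receptor, fell by 0.36 (limma adjusted p 0.0295). Slc11a2, an iron transporter, rose by 1.97 (SE 0.22, limma adjusted p 0.000229), with 8.00 to 8.63 in PBS and 9.60 to 10.52 in SP. Jak2, the kinase of the erythropoietin receptor and of other cytokine receptors, rose by 1.74 (SE 0.15, limma adjusted p 5.25e-05), with 9.93 to 10.52 in PBS and 11.90 to 12.19 in SP. Slc25a37, the mitochondrial iron importer mitoferrin, rose by 1.72 (limma adjusted p 3.66e-05). Slc40a1, the iron exporter ferroportin, was the brightest gene of the list and differed by 0.09 (limma adjusted p 0.798).

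Of 10 genes that dispose of heme and hemoglobin, 4 were called higher and 1 lower, Hpx, beside 21.5% and 22.6% of all rows. The median difference of the list was 0.21. Hmox1, the heme oxygenase that opens the heme ring, read 10.27, 10.32, 10.71 and 10.89 in PBS and 12.62, 12.53, 13.00 and 12.64 in SP, a rise of 2.15 (SE 0.17, 4.44-fold, limma adjusted p 3.64e-05). Within PBS its values were higher on arrays 3 and 4, the arrays with most globin signal. So were those of Jak2, Nt5c3 and the neutrophil marker Cxcr2, while Cpox went the other way. This pattern is thus not particular to genes of heme handling. Spic, a transcription factor known from macrophages that recycle red cells, rose by 2.56 (SE 0.31, 5.91-fold, limma adjusted p 0.000338), with 5.55, 5.21, 5.58 and 5.79 in PBS and 8.15, 7.27, 8.02 and 8.93 in SP. The ferritin genes Fth1 and Ftl1, which store iron, rose by 0.31 and 0.59 (limma adjusted p 0.00495 and 0.000179). The hemoglobin scavenger receptor Cd163 (difference -0.19) and haptoglobin, Hp (-0.23), were not called.

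**Figure D3:**
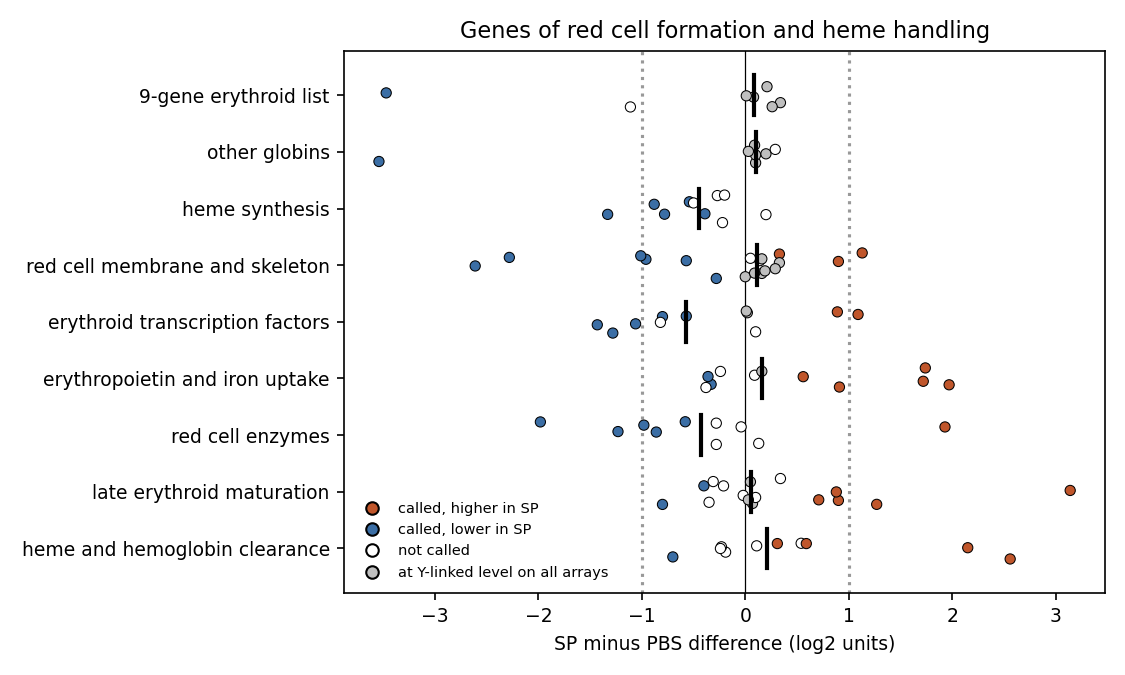
SP minus PBS difference in log2 units (horizontal axis) of every gene with a row in the 9-gene list and the 8 lists of red cell formation and heme handling, coloured by call. Genes at the Y-linked level on all arrays are grey whether called or not, which includes the called Hemgn, Car1, Ank1 and Ermap. A thick bar marks the median of each list and dotted lines mark 2-fold. Hbb-bs and Hba-a2 stand alone beyond -3, and the list medians lie between -0.57 and 0.21.

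Array scaling bears on these medians. SP array medians (5.78 to 5.91) lay under those of PBS (6.06 to 6.20), and centring each array on its median raised every difference by 0.28. The median of the 7 erythroid genes was then 0.36, with 6 called, and under a second quantile normalization it was -0.07, with 1 called. The fall of Hbb-bs (-3.18 and -3.35) was called under both. List medians that changed sign under the second quantile normalization were those of the other globins (-0.05) and of the membrane genes (-0.01).

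Markers of cell types moved between the groups as well. The counts below stand beside 21.5% of all rows called higher and 22.6% called lower in SP. The 9 neutrophil genes with a row averaged 12.85 to 13.16 on PBS arrays and 12.55 to 13.14 on SP arrays, with a median difference of -0.24, and Ly6g itself had no matched row. Of these 9, 3 were called lower, Retnlg (-0.47), Mmp8 (-0.76) and Mmp9 (-0.59), and none higher. Mmp8 kept its call in 7 of 16 alternatives. Its losses included the methods' t-test (adjusted p 0.0822) and the fits without any 1 array other than SP array 3. Mmp9 kept its call in 11 of 16, and its losses included the fits without PBS array 3, PBS array 4, SP array 1 or SP array 2. Alternatives were not run for Retnlg. All 9 epithelial markers with a row were called lower, with list averages of 12.12 to 12.46 in PBS and 10.41 to 11.25 in SP. Of 11 endothelial markers 9 were called lower, with averages of 10.21 to 11.19 and 8.58 to 9.82, and of 9 alveolar macrophage markers 5 were called lower and 1, Chil3, higher, a call lost without PBS array 3 or PBS array 4. No marker of these 4 lists was at background on all arrays. The 12 platelet and megakaryocyte markers averaged 6.17 to 6.67 in PBS and 6.28 to 6.39 in SP, with 1 called higher (Itgb3) and 2 lower, of which Ppbp fell by 2.13 (limma adjusted p 0.00697). Median differences were -1.48 for the epithelial, -1.33 for the endothelial and -1.25 for the macrophage list. The erythroid list had a median of 0.08, with 5 of its 7 genes at background. A list median is not a like measure to the difference of Hbb-bs alone. The part of these cell types in the globin result was not tested.

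Within the PBS group the lists ran in different directions. The neutrophil averages on PBS arrays 3 and 4 (13.16 and 13.11) were above those of PBS arrays 1 and 2 (13.00 and 12.85), the same order of arrays as for Hbb-bs and Hba-a2. The endothelial average was lower on PBS arrays 3 and 4 (10.32 and 10.21) than on PBS arrays 1 and 2 (10.85 and 11.19), where the globins were lower, and the platelet average was likewise lower there (6.25 and 6.17, against 6.34 and 6.67). Ppbp, the platelet basic protein gene, was highest on PBS array 2 (10.07), the PBS array with the least Hbb-bs. The epithelial averages of 12.12 and 12.19 on PBS arrays 3 and 4 lay under the 12.24 and 12.46 of the others. The alveolar macrophage average did not split this way, with 9.78, 9.04, 9.09 and 9.19 on PBS arrays 1 to 4.

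**Figure D4:**
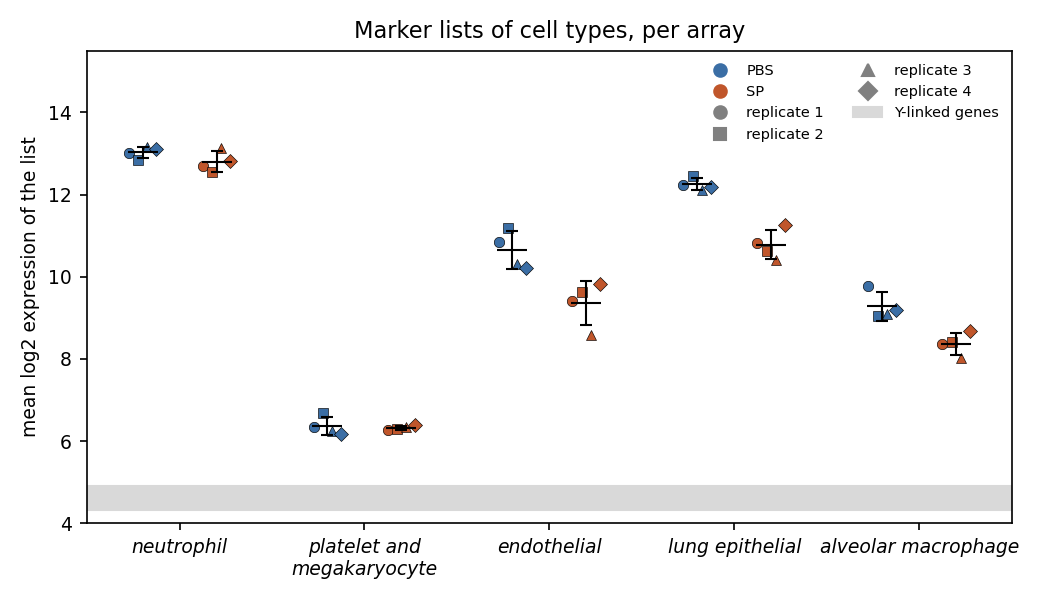
Mean log2 expression of 5 marker lists (horizontal axis) on the 4 PBS arrays (blue) and 4 SP arrays (red), with symbols for replicate numbers, the mean as a long bar, 1 SD as whiskers and a grey band for the Y-linked rows. Endothelial, epithelial and alveolar macrophage averages are lower on every SP array than on every PBS array, while the neutrophil and platelet averages overlap between groups.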

How the data were processed

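Per the study's methods, the authors made the deposited log2 values by robust multi-array averaging, which corrected for background, probe sequence and GC content, quantile-normalized the arrays and summarised probes by median polish under a custom probe-to-gene mapping. The submitters' processing notes name Affymetrix Expression Console, RMA and Partek. Values are relative within an array, so a change in total RNA cannot be read from them, and bright rows may be compressed.

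Groups and replicate numbers came from the sample titles. Rows received symbols through RefSeq accessions (19915 of 24625, 80.9%), and the brightest row stood for a gene with several (78 symbols). SP and PBS were compared with limma 3.58.1 in R 4.3.3 (lmFit and eBayes, no covariates, two-sided, Benjamini-Hochberg over all rows), called at an adjusted p of at most 0.05, and at 2-fold from 1 log2 unit. The fit was tested on simulated data. Motifs and figures used Python 3.11.15. Single far arrays were flagged where Dixon's ratio exceeded 0.829. All 8 value columns were used.

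The members and lists were chosen with earlier results of these data known. Named were all members, the brightest gene and the 2 called genes of largest change per list, the 5 genes most like Hbb-bs by each measure, and Y-linked genes. Further genes were picked after their values were seen. Eif2s3y had no matched row. Some list genes are counted but not reported here by name. Alternatives were the methods' t-test, a robust trended prior, the replicate block, array weights, 2 rescalings, leaving out dim rows, 1 row per symbol, leaving out each array, and treat.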

Additional observations from a re-analysis of the deposited data

Results flagged for a closer look

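Of 104 sets of 4 values (52 genes in each group) 4 held 1 array far from the other 3, about as many as chance alone flags (1 in 20). In PBS, array 3 was the far one for Rhd, at 4.53 against 4.41 to 4.42. In SP, array 2 was the low one for Hba-a2, at 6.86 against 7.61 to 7.76, and for 1500011B03Rik, at 6.01 against 6.23 to 6.26. Cat was high on SP array 4, at 10.34 against 9.78 to 9.82.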

How the results depend on the processing

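The fall of Hbb-bs kept its direction and its call under every alternative run, and the count of members called at 2-fold was 1 in all. The count of 3 called members was 6 with arrays centred on their median and 1 with treat, with a second quantile normalization and without dim rows (1 member tested), and ran from 1 to 3 when single arrays were left out (1 without PBS array 1, PBS array 2 or SP array 1). The median of the members was 0.36 centred, -0.07 after another quantile normalization and -3.47 without dim rows. Centring called 18255 of all rows, and treat called 1572, which is also its count at 2-fold. Centred list medians were 0.38 (other globins), -0.16 (heme synthesis), 0.39 (membrane), -0.29 (transcription factors), 0.44 (iron uptake), -0.15 (enzymes), 0.34 (maturation) and 0.49 (clearance). After another quantile normalization they were -0.05, -0.14, -0.01, -0.17 and -0.59 for globins, heme synthesis, membrane, transcription factors and enzymes. Without dim rows they were -3.54, -0.96, -0.82, 0.74, -0.58 and 0.80 for globins, membrane, transcription factors, iron uptake, enzymes and maturation. Transcription factors had -0.43 with array weights. With single arrays left out, their median ran from -0.65 to -0.37 and that of enzymes from -0.60 to -0.43. Further counts of list calls that moved by over 1.5 times were 11 for maturation (7 before) when centred, 8 for clearance (5 before) with array weights and 5 for membrane (11 before) without dim rows. Centring adds 0.28 to every difference by construction, and the filter leaves fewer genes. The cause of the other shifts was not tested.

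Signs turned only for uncalled genes near 0. With array weights Slc4a1 was at -0.00, Slc2a1 at -0.20 and Olfr993 at -0.03. Centred, Aldoa was at 0.00, Bnip3l at 0.26 and 1500011B03Rik at 0.10. After another quantile normalization Slc4a1 was at -0.14, Rhd at -0.07, Alas1 at -0.06, Slc2a1 at -0.18, Slc40a1 at -0.13, 1500011B03Rik at 0.22, Olfr993 at -0.10 and Ddx3y at -0.02. With single arrays left out, Slc4a1 ran from -0.03 to 0.05, Slc2a1 from -0.12 to 0.17, Slc40a1 from -0.15 to 0.26, Olfr993 from -0.04 to 0.12 and Bnip3l from -0.08 to 0.03. No source used here states that equal replicate numbers pair the arrays. Deviations of same-numbered arrays correlated at 0.0156, 0.0304, 0.35 and -0.274, and such coefficients cannot decide whether samples were handled in pairs. With the replicate block 2 members (not Hemgn) and 9842 rows were called, and Hbb-bs kept -3.47 (limma adjusted p 0.00287).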
